A study of Homo sapiens with 4 samples.

Results

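The 9 genes described here encode the amyloid precursor family (APP, APLP1 and APLP2) and proteases that cut it: ADAM10, BACE1 and the gamma secretase subunits PSEN2, NCSTN, APH1A and PSENEN. They were taken by name from 58243 listed genes, and all 9 were found and passed the filter on low counts that left 14759 genes for testing. The samples were 4 RNA sequencing libraries of SH-SY5Y cells, a long established line from a human neuroblastoma that can take on neuronal features. The control group had 2 libraries of untreated cells, and the SNP group had 2 libraries from SNP treatment (sodium nitroprusside, which releases nitric oxide), with an exposure of 8 h in the protocol. The dose that was sequenced is not labelled, and the submitters call the RNA of the SNP group oxidized. The protocol describes cells differentiated with retinoic acid and does not say whether the control wells differed in this; both groups carry the same cell line label. Libraries carry the letters a and b, and nothing labels them as separate cultures, so p-values measure the spread between these libraries, which may be technical.

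Amyloid precursor protein crosses the membrane once and is cut in sequence. An alpha secretase such as ADAM10 cuts inside the amyloid peptide and releases a soluble ectodomain, whereas the beta secretase BACE1 cuts at its start; gamma secretase then cuts the remaining stump within the membrane. Gamma secretase is a complex of a presenilin, which holds the active site, nicastrin (NCSTN), an APH1 protein and PEN-2 (PSENEN). In neurons the same enzymes cut many other membrane proteins, Notch receptors among them.

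The coding segment that the enzymes share as a target is shown first, because it separates APP from its relatives, which lack an amyloid peptide. It covers codons 667 to 719 of the 770-codon APP-201 transcript in GENCODE 29 (GRCh38, minus strand of chromosome 21). Capitals mark the codon pairs around the beta cut (codons 671 and 672), the alpha cut (687 and 688) and the gamma cut that ends the longer amyloid peptide (713 and 714).
APP: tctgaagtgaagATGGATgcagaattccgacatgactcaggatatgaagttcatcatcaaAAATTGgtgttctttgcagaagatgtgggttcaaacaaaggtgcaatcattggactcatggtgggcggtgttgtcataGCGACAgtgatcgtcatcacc

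The 3 precursors share the end of the cytoplasmic tail, where adaptor proteins such as APBB1 and APBA1 bind. The last codons of each reading frame, up to and including the stop codon, are shown with capitals on the 4 codons of the shared asparagine-proline-threonine-tyrosine motif.
APP: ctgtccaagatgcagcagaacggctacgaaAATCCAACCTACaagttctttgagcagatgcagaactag
APLP1: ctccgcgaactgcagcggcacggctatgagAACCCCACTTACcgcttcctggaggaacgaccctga
APLP2: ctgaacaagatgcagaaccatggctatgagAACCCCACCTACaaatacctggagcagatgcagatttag
Aligned on the motif, APP and APLP2 had the same base at 50 of 66 positions and the same residue at 16 of 22 codons. APP and APLP1 had the same base at 38 of 63 positions and the same residue at 11 of 21 codons.

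The summed gene counts lay between 5613144 and 8056550 per library, so that 3 counts corresponded to between 0.372 and 0.534 CPM (counts over the library size as scaled by TMM), a floor that covers counting error only. Replicates differed by more than counting noise, with a chi-square per degree of freedom of 2.91 for control and 4.75 for SNP. Of 8 noradrenergic neuroblastoma markers, 7 were counted and 6 differed, 5 lower, among them DBH at a log2 fold change of -1.38, and 1 higher, HAND2 at 0.41, with a summed level of 3940 to 4159 TPM (a level per length, scaled to the same total in each library) in control and 3026 to 3520 TPM in SNP libraries; tyrosine hydroxylase (TH) was listed at 0 in every library. The 5 neuronal markers summed to 2051 to 2083 TPM in control and 1823 to 1850.1 TPM in SNP libraries, and 2 of them, ELAVL4 and TUBB3, were lower. The 5 mesenchymal markers summed to 26.5 to 32.9 TPM in control and 47.0 to 49.3 TPM in SNP libraries, most of it COL3A1, which was higher; COL1A2 was lower, at a log2 fold change of -1.67. Their part in the results was not tested. Glial and immune markers summed to at most 3.10 TPM, with AQP4, MBP, PTPRC, AIF1 and CD3E at 0.

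Of the 9 genes, 2 rose, APP and APLP2, and 1 fell, APH1A, where the threshold was 0.05 on the Benjamini-Hochberg adjusted p-value of the edgeR quasi-likelihood test over all genes tested. That is 33.3% of the 9, against 26.2% of all genes tested (13.6% higher and 12.6% lower), so the number of calls lies near the background. The median log2 fold change of the 9 genes was 0.17, beside -0.0042 for all genes tested. Both SNP values lay above both control values for 5 genes (APP, APLP1, APLP2, ADAM10 and BACE1) and below them for 2 (NCSTN and APH1A), and the groups overlapped for PSEN2 and PSENEN; 64.0% of all genes tested did not overlap. These are bulk values, in which fewer cells of a kind and less RNA per cell cannot be told apart.

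**Figure D1:**
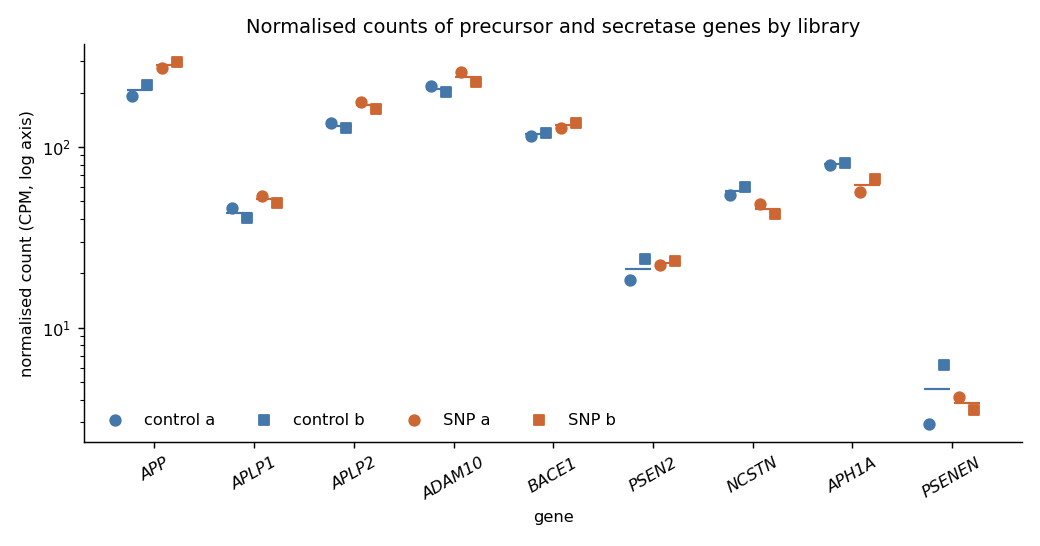
Normalised counts (CPM, log axis) of the 9 genes in each library; blue points are control, orange points SNP, circles library a, squares library b, and lines the group means. APP, APLP1, APLP2, ADAM10 and BACE1 have both SNP points above both control points, and NCSTN and APH1A have both below.

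APP is the precursor of the amyloid peptide. The gene (ENSG00000142192; chromosome 21, 25880550 to 26171128, minus strand) gave 1248 counts (control a) and 1242 counts (control b) against 2194 (SNP a) and 2286 (SNP b). After scaling, these were 192 and 219.9 CPM in control and 275 and 296 CPM in SNP libraries. The SNP values were the 2 highest, and the gap between the groups was larger than the gap within either. The mean rose from 206 ± 19.8 to 286 ± 14.3 CPM (SD, n = 2 each), a fold of 1.39. On the log2 scale the difference was 0.47 (SE 0.0999; adjusted p-value 0.0014, edgeR quasi-likelihood, Benjamini-Hochberg), which is percentile 85.5 of all genes tested. Counts are per gene, so isoforms of APP are not separated.

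APLP2 is a widely expressed relative of APP that lacks the amyloid peptide. The gene (ENSG00000084234; chromosome 11, 130068147 to 130144811, plus strand) gave 883 and 718 counts in control a and b and 1414 and 1260 in SNP a and b, or 136 and 127 CPM against 178 and 163 CPM. Here library a was the higher of each pair, the reverse of APP, and the groups did not overlap. The mean rose from 131 ± 6.14 to 170.2 ± 10.3 CPM (SD, n = 2 each), a log2 fold change of 0.37 (SE 0.103) and an adjusted p-value of 0.0106 (edgeR quasi-likelihood, Benjamini-Hochberg).

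APLP1 is the neuronal relative of APP. The gene (ENSG00000105290; chromosome 19, 35867899 to 35879791, plus strand) gave 299 and 230 counts in control a and b and 429 and 377 in SNP a and b, or 46.0 and 40.7 CPM against 53.9 and 48.8 CPM. Both SNP values were higher, by less than the spread within a group in the closest pair, 46.0 against 48.8 CPM. The log2 fold change was 0.24 with a 95% interval of -0.036 to 0.52, and the adjusted p-value of 0.196 (edgeR quasi-likelihood, Benjamini-Hochberg) did not pass.

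Within each library the 3 precursors can be compared per length. As mean ± SD over the 2 libraries of a group, APP made up 52.5 ± 3.95% of the precursor TPM in control and 55.1 ± 2.83% in SNP, APLP2 28.4 ± 1.92% and 27.8 ± 1.65%, and APLP1 19.1 ± 2.04% and 17.1 ± 1.18%. For all 3 shares the groups overlapped, and the group means differed by less than the control libraries did from each other. For APLP1 the difference of -2.02 points was larger than the gap between SNP a (17.9%) and SNP b (16.3%). With 2 libraries against 2, an exact permutation test cannot give a two-sided p below 0.333, so none is given for shares and ratios.

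ADAM10 is the main alpha secretase of neurons. The gene (ENSG00000137845; chromosome 15, 58588807 to 58749978, minus strand) gave 1409 and 1145 counts in control a and b and 2067 and 1769 in SNP a and b, or 217 and 203 CPM against 259.5 and 229 CPM. The SNP values were both higher, but SNP b lay closer to control a than to SNP a. The log2 fold change was 0.22 (SE 0.0998; 95% interval 0.011 to 0.43), and the adjusted p-value of 0.112 (edgeR quasi-likelihood, Benjamini-Hochberg) did not pass.

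BACE1 is the beta secretase. The gene (ENSG00000186318; chromosome 11, 117285207 to 117316259, minus strand) gave 745 and 680 counts in control a and b and 1022 and 1047 in SNP a and b, or 115 and 120.4 CPM against 128 and 135 CPM. The order of the libraries was the same as for APP, with a smaller gap between the groups. The log2 fold change was 0.17 (SE 0.105; 95% interval -0.051 to 0.38), and the adjusted p-value of 0.258 (edgeR quasi-likelihood, Benjamini-Hochberg) did not pass. BACE1 shares 1239 of its 7190 exonic bases with RNF214 and 1872 with the antisense gene BACE1-AS, both on the opposite strand, and the use of strand in the counting is not stated, so reads of these genes cannot be told apart there. RNF214 had 2116 counts in all against 3494 for BACE1. BACE1-AS itself had 20 and 12 counts in control a and b and 12 and 13 in SNP a and b.

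The balance of alpha to beta secretase transcripts did not separate the groups on the uncorrected TPM scale. The log2 ratio of ADAM10 over BACE1 in TPM was -0.25 and -0.42 in control and -0.15 and -0.41 in SNP libraries. The ratio of APP to BACE1 did: its log2 value was 0.93 and 1.06 in control and 1.29 and 1.31 in SNP libraries. Against ADAM10, APP gave 1.18 and 1.47 in control and 1.44 and 1.73 in SNP libraries, which overlap. These ratios are not corrected for base composition. With offsets for gene length, GC content and guanine minus cytosine content, the fold change of APP minus that of BACE1 turned from 0.31 to -0.20 (log2), and that of ADAM10 minus BACE1 from 0.052 to -0.44.

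Of the gamma secretase genes, APH1A (ENSG00000117362; chromosome 1, 150265399 to 150269580, minus strand) encodes the main scaffold subunit. It gave 519 and 459 counts in control a and b and 452 and 512 in SNP a and b, although the SNP libraries were deeper. Scaled, these were 79.8 and 81.3 CPM in control against 56.7 and 66.2 CPM in SNP libraries, both lower. The mean fell from 80.6 ± 1.02 to 61.5 ± 6.69 CPM (SD, n = 2 each), a log2 fold change of -0.39 (SE 0.12) and an adjusted p-value of 0.0201 (edgeR quasi-likelihood, Benjamini-Hochberg).

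NCSTN encodes nicastrin, the large glycoprotein of the complex that recognises substrates. The gene (ENSG00000162736; chromosome 1, 160343272 to 160358952, plus strand) gave 351 and 341 counts in control a and b and 388 and 328 in SNP a and b, or 54.0 and 60.4 CPM against 48.7 and 42.4 CPM. The groups did not overlap, yet each spread by about as much as the gap between them. The log2 fold change was -0.33 (SE 0.132; 95% interval -0.60 to -0.052), and the adjusted p-value of 0.0724 (edgeR quasi-likelihood, Benjamini-Hochberg) did not pass. NCSTN shares 129 of its 4175 exonic bases with COPA on the other strand, which had 8233 counts in all against 1408 for NCSTN.

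PSEN2 encodes a presenilin, the catalytic subunit. The gene (ENSG00000143801; chromosome 1, 226870184 to 226896105, plus strand) gave 120 and 135 counts in control a and b and 177 and 182 in SNP a and b, or 18.5 and 23.9 CPM against 22.2 and 23.5 CPM. Both SNP values lay between the control values. The log2 fold change was 0.12 with a 95% interval of -0.26 to 0.49 and an adjusted p-value of 0.678 (edgeR quasi-likelihood, Benjamini-Hochberg).

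PSENEN encodes PEN-2, the smallest subunit, and was the least counted of the 9 genes. The gene (ENSG00000205155; chromosome 19, 35745114 to 35747519, plus strand) gave 19 and 35 counts in control a and b and 33 and 27 in SNP a and b, or 2.92 and 6.20 CPM against 4.14 and 3.49 CPM. The control libraries enclosed the SNP libraries. The 95% interval of its log2 fold change, -1.05 to 0.58, spans a halving, so a change of that size was not detectable at this depth. PSENEN also shares exonic bases with U2AF1L4 (332 of 1845) and 3 other annotated genes.

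**Figure D2:**
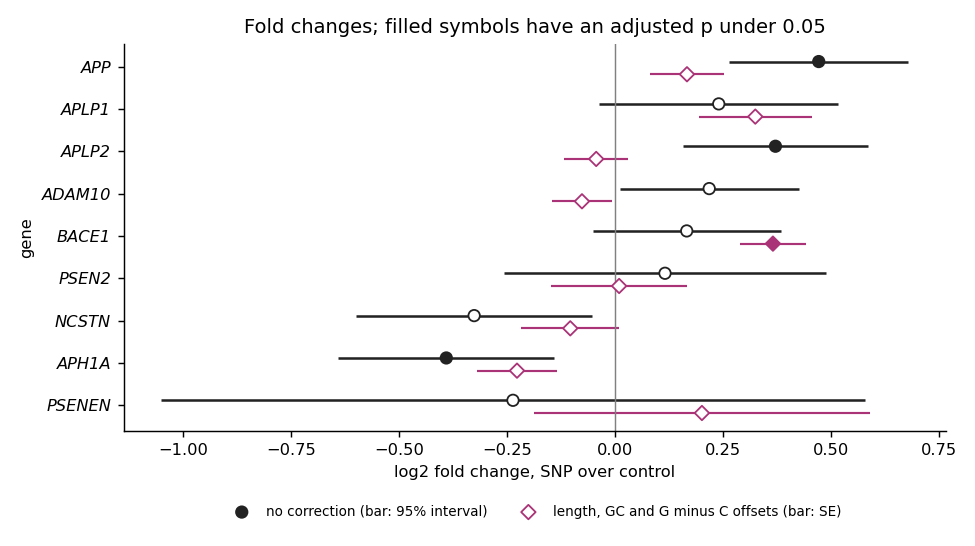
Log2 fold changes of SNP over control from edgeR (black circles with 95% intervals) and the same with offsets for gene length, GC content and guanine minus cytosine content (purple diamonds with SE); filled symbols have an adjusted p-value under 0.05. APP, APLP2 and APH1A are filled without the offsets, and BACE1 alone is filled with them.

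Transcripts of APP were more abundant relative to those of APH1A and NCSTN in both SNP libraries. The log2 ratio of APP over APH1A in TPM was 0.40 and 0.57 in control and 1.42 and 1.30 in SNP libraries. That of APP over NCSTN was 1.23 and 1.27 in control and 1.90 and 2.20 in SNP libraries. Both ratios separated the groups by more than the spread within them, and both are taken within a library, so library scaling does not enter, although base composition does. With the offsets for length, GC and guanine minus cytosine, the fold change of APP minus that of APH1A went from 0.86 to 0.39 (log2), and that of APP minus NCSTN from 0.80 to 0.27. The ratios do not show which gene of a pair differed. Among the 4 gamma secretase members, PSEN2 made up 11.6 and 13.4% of TPM in control a and b and 16.4 and 16.8% in SNP a and b, which do not overlap, whereas the shares of APH1A, NCSTN and PSENEN overlapped.

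Levels per length were ordered within each group. In control libraries the order was APP (154 ± 16.9 TPM), APH1A (109 ± 2.87), APLP2 (83.2 ± 2.76), BACE1 (77.1 ± 3.74), NCSTN (64.6 ± 5.98), ADAM10 (61.2 ± 2.05), APLP1 (55.9 ± 4.04), PSEN2 (26.7 ± 5.20) and PSENEN (11.7 ± 6.08; SD, n = 2 each). Only NCSTN and ADAM10 overlapped among neighbours in that order. In SNP libraries APLP2 (117 ± 3.28 TPM), BACE1 (94.0 ± 6.63), APH1A (90.9 ± 12.8), ADAM10 (77.3 ± 4.37), APLP1 (71.8 ± 2.72) and NCSTN (55.8 ± 3.65) followed APP (232 ± 19.1), with PSEN2 (31.3 ± 2.29) and PSENEN (10.6 ± 0.935) last, and BACE1 and APH1A were the only neighbours to overlap. APH1A thus stood in front of APLP2 in the control libraries and behind it in the SNP libraries. That exchange is on the uncorrected scale: with the composition offsets the fold change of APLP2 minus that of APH1A was 0.18 (log2), less than the gap of 0.395 between their control means. TPM levels are not set against each other between groups here, because the median gene of at least 5 CPM was itself 0.11 higher in SNP on the log2 TPM scale, against -0.0094 on the CPM scale. The lengths are those of all annotated exons merged, so a gene with long, little used exons, as ADAM10 may have with 16168 bases, reads low.

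**Figure D3:**
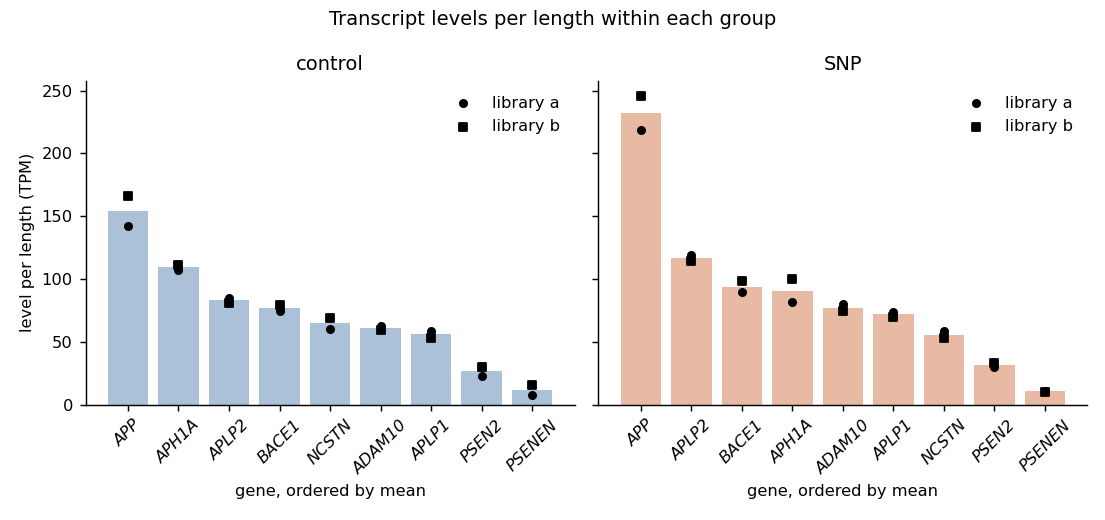
Levels per length (TPM) of the 9 genes in control libraries (left) and SNP libraries (right), ordered by the mean of the group; bars are means and points the 2 libraries. APH1A lies directly behind APP in control libraries, and behind APLP2 and BACE1 in SNP libraries.

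The fold changes ran along with the base composition of the transcripts, and this bears on each call above. All tested genes with known composition were put into deciles by guanine minus cytosine content; the median log2 fold change was -0.43 in the decile with least guanine relative to cytosine and 0.39 in the decile with most. APP has 26.5% guanine and 22.5% cytosine, in a decile with a median of 0.24, which APP exceeded at 0.47. APLP2, at 27.7% guanine and 22.7% cytosine, lay in the highest decile, and its 0.37 was close to that decile's median of 0.39. ADAM10 at 0.22 and PSEN2 at 0.12 were likewise close to the medians of their deciles, 0.24 and 0.089.

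BACE1 and APLP1 departed from this pattern. BACE1 has more cytosine (26.9%) than guanine (25.2%), in a decile with a median of -0.27, and had a log2 fold change of 0.17. APLP1 lay in a decile with a median of -0.091 and had 0.24. APH1A at -0.39 was below the median of its decile, -0.17, and NCSTN at -0.33 was near its own, -0.27. PSENEN at -0.24 was above the median of its decile, -0.43, by less than its SE of 0.39.

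**Figure D4:**
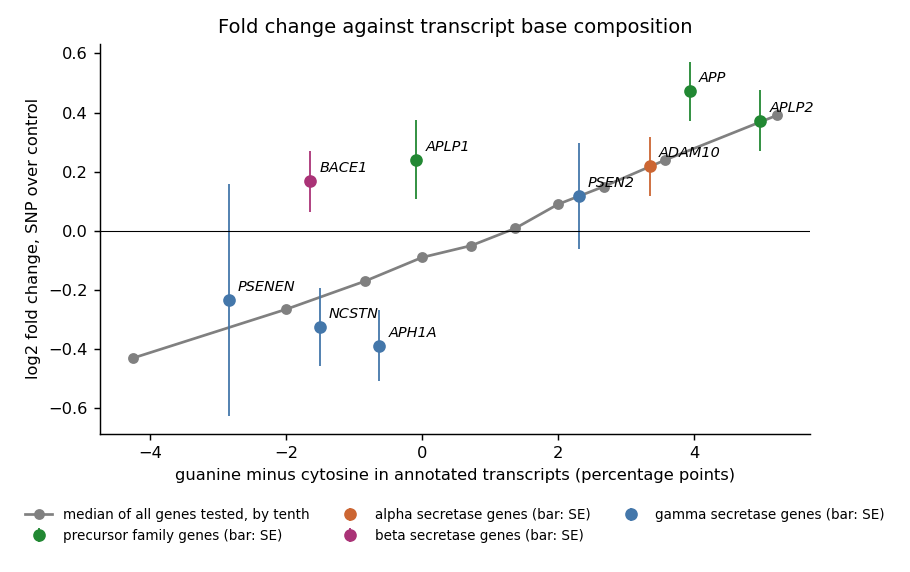
Log2 fold change of SNP over control against guanine minus cytosine content of the annotated transcripts (percentage points), with the 9 genes coloured by role (bars are SE) and the medians of all tested genes by decile in grey. APLP2, ADAM10 and PSEN2 sit on the grey line, APP, APLP1 and BACE1 above it, and APH1A below it. NCSTN lies near the line, and PSENEN above it with a bar that crosses it.

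With offsets for gene length, GC content and guanine minus cytosine content, 1 of the 9 genes passed, against 18.8% of the 14724 genes tested that way. That gene was BACE1, with a log2 fold change of 0.37 and an adjusted p-value of 0.0057 (edgeR quasi-likelihood, Benjamini-Hochberg). APP was then at 0.17 (adjusted p-value 0.199), APH1A at -0.23 (0.107) and APLP2 at -0.043 (0.736), all by the same edgeR test. The calls on APP, APLP2 and APH1A therefore hold only without this correction, and APLP2 and ADAM10 (-0.076) had the opposite sign under it. The part of base composition in these results was not tested.

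Some calls were lost when 1 library was left out, as were calls among all genes: 15.99% of genes passed without control a and 15.8% without control b. Without control a, 0 of the 9 genes passed, APP being at 0.37 with an adjusted p-value of 0.0595 and APLP2 at 0.42 with 0.0557 (edgeR quasi-likelihood, Benjamini-Hochberg). Without control b only APP passed, at 0.57, while APLP2 was at 0.33. The fold change of APH1A stayed close to its value with all libraries, at -0.41 without control a and -0.38 without control b. Without SNP a, APP was at 0.52, APLP2 at 0.31 and NCSTN at -0.43, while APH1A, at -0.28, did not pass. Without SNP b, APP was at 0.42, APLP2 at 0.44, ADAM10 at 0.31 and APH1A at -0.50. By DESeq2 (Wald test) 16.4% of all genes tested passed, APP and APLP2 among them. APH1A, at -0.39 there, had an adjusted p-value of 0.0650 (Wald test, Benjamini-Hochberg).

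Around these 9 genes, 68 others were listed by their role in the same pathway, and 63 of them were counted well enough to be tested. Of the 63, 23 differed, 4 higher and 19 lower; that is 6.35% higher and 30.2% lower, beside 13.6% and 12.6% of all genes tested. The lists are not independent evidence, since earlier results of these data were known when they were drawn up. With the offsets for length, GC and guanine minus cytosine, 18 differed, 3 higher and 15 lower. That is 28.6% of the 63, beside 18.8% of all 14724 genes tested that way. Among those 14724 genes, 1227 were called higher and 1539 lower. The median log2 fold change of the 63 genes was -0.094, against 0.17 for the 9 genes themselves.

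Among other secretases and shedding proteases, 1 of 6 tested genes rose and 1 fell (median log2 fold change of the 6, -0.043). Each is 16.7% of the 6, beside 13.6% higher and 12.6% lower among all genes tested. ADAM17, an inducible alpha secretase, rose from 146 ± 1.95 to 182 ± 19.9 CPM (SD, n = 2 each), a log2 fold change of 0.32 that was 0.011 with the composition offsets; ADAM17 also shares 1323 of its 10750 exonic bases with IAH1. It passed in the leave-one-out fits only without SNP b (0.43), and did not pass with DESeq2. CTSB, the lysosomal protease cathepsin B, fell by 0.40 on the log2 scale; without control a (-0.41) or control b (-0.395) it did not pass. APH1B, a paralog of APH1A, had -0.0086 and did not pass. BACE2 had 1 count in all 4 libraries together and was not tested.

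Among the partners of the secretases, 2 of 13 genes fell and 0 rose (median 0.018). The share that fell, 15.4%, was near the 12.6% of all genes tested, of which 13.6% rose. TSPAN5, a tetraspanin that carries ADAM10 to the cell surface, had 43.7 and 43.7 CPM in control and 31.01 and 34.7 CPM in SNP libraries, a log2 fold change of -0.41 that passed in the leave-one-out fits only without SNP b (-0.49), and not with DESeq2. RTN3, a reticulon that binds and restrains BACE1, had 221 and 219 CPM against 169 and 162 CPM, also -0.41, and -0.18 with the composition offsets, where it no longer passed (adjusted p-value 0.0873, edgeR quasi-likelihood, Benjamini-Hochberg).

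Of the proteins that bind the precursors, 3 of 9 tested genes fell and 1 rose (median -0.094). These are 33.3% and 11.1% of a short list, beside 12.6% and 13.6% of all genes tested. APBB2, an adaptor of the tail motif shown above, fell from 87.9 ± 5.13 to 59.4 ± 0.650 CPM (SD, n = 2 each), a log2 fold change of -0.56. APBA1, another tail adaptor, fell by 0.64 on the log2 scale and did not pass without control a (-0.65), without control b (-0.63) or with DESeq2. ITM2C, a BRI family membrane protein that binds APP and lowers its cleavage, rose from 17.5 and 23.2 CPM in control to 37.7 and 34.3 CPM in SNP libraries, a log2 fold change of 0.83, and 0.81 with the composition offsets. The adjusted p-values were 0.0011 for APBB2, 0.0106 for APBA1 and 0.0011 for ITM2C (edgeR quasi-likelihood, Benjamini-Hochberg).

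Of the genes that sort APP and BACE1 between the surface, endosomes and the Golgi, 4 of 12 fell and 0 rose (median -0.090). Those that fell are 33.3%, beside 12.6% of all genes tested, of which 13.6% rose. AP2A1, a subunit of the clathrin adaptor of endocytosis, fell from 77.1 ± 1.18 to 42.8 ± 5.49 CPM, and SORT1, the sorting receptor sortilin, from 147 ± 0.0555 to 97.5 ± 2.76 CPM (SD, n = 2 each). Their log2 fold changes were -0.85 and -0.59, with adjusted p-values of 5.5e-05 and 2.7e-04 (edgeR quasi-likelihood, Benjamini-Hochberg). With the composition offsets both stayed past the threshold, at -0.54 and -0.61.

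Of the genes for breakdown and clearance of the amyloid peptide, 3 of 8 tested genes fell and 0 rose (median -0.31). Those that fell are 37.5% of a short list, beside 12.6% of all genes tested, of which 13.6% rose. ECE1, an endothelin converting enzyme that can also degrade the peptide, fell from 88.0 ± 0.953 to 60.3 ± 6.39 CPM (SD, n = 2 each), or by 0.55 on the log2 scale. The insulin degrading enzyme IDE had -0.19 and the clearance receptor LRP1 had 0.0014; neither passed.

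Of the other substrates of these enzymes, 6 of 15 tested genes fell and 2 rose (median -0.28). These are 40% and 13.3%, beside 12.6% and 13.6% of all genes tested. SEZ6, a BACE1 substrate of the synapse, fell from 58.0 ± 0.642 to 33.9 ± 7.29 CPM, and the netrin receptor DCC from 9.19 ± 1.03 to 4.45 ± 0.808 CPM (SD, n = 2 each), log2 fold changes of -0.77 and -1.04. EFNB2, the ligand ephrin-B2, rose by 0.47. NOTCH1 had 37 and 8 counts in control a and b and 66 and 121 in SNP a and b; its log2 fold change of 1.70 ranged from 1.07 to 3.06 when 1 library was left out, without SNP b it did not pass, and DESeq2 (Wald, Benjamini-Hochberg) gave an adjusted p-value of 0.212. For SEZ6 the composition offsets gave -0.34, which did not pass. Among the other genes that fell, SEZ6L (-0.18), SEZ6L2 (-0.20) and NCAM1 (-0.17) did not pass with the offsets either. L1CAM (-0.27) and DCC (-0.90) still passed, and NOTCH2 (-0.34) passed only with them. DCC did not pass without control b (-0.92), without SNP b (-0.86) or with DESeq2, and EFNB2 not without control b (0.43).

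**Figure D5:**
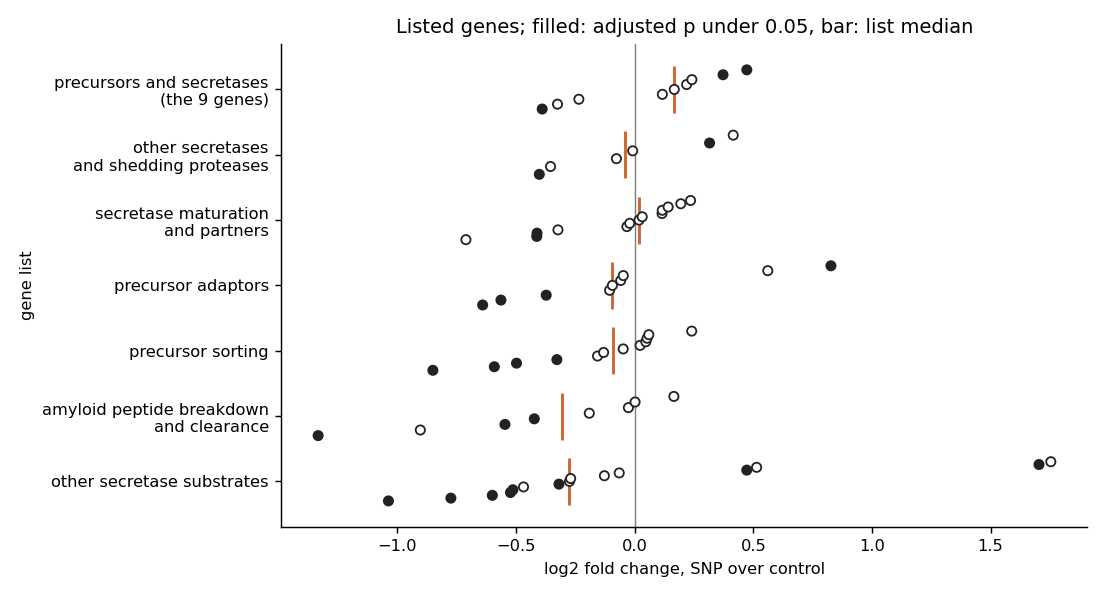
Log2 fold changes of SNP over control for the 9 genes and for the 63 tested genes of the pathway lists; filled circles have an adjusted p-value under 0.05 and orange bars are list medians. Filled circles lie on both sides of 0 for the 9 genes and mostly below 0 for the sorting, breakdown and substrate lists.

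The genes whose pattern over the 4 libraries was most like that of APP were RNF220, ZNF330 and BICD2, with distances of 0.013, 0.027 and 0.029 between centred log2 CPM values, out of 12115 genes of at least 5 CPM. Those most like BACE1 were NCOA5, FRG1DP and USF2, at 0.024, 0.027 and 0.030. With only 4 libraries such patterns are common: 53 genes lay within 0.1 of APP and 265 within 0.1 of BACE1.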

How the data were processed

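The tables hold 4 libraries of SH-SY5Y cells, grouped by sample titles into 2 control and 2 SNP libraries; labelled reads were 75 bp at 40 M per sample. Raw read counts per gene, as whole numbers, were deposited in the expression column. The deposited TPM column sums to the same total in each library, and the deposited RPKM column is scaled per kilobase to a larger read total than the counts sum to. GRCh38 is named in the submitters' processing notes; the aligner, counter and annotation are not given in the sources used here. Positions, lengths, exon overlaps, coding sequences and base composition (over all annotated transcripts of a gene) come from GENCODE 29 on GRCh38. The length implied by count and RPKM equalled the merged exon length for 8 of the 9 genes; APLP2 differed (7451 against 7463 bases).

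Counts were filtered with filterByExpr (minimum count 10, minimum total 15), scaled by TMM and tested with edgeR 4.0.16 (R 4.3.3) by the quasi-likelihood test, SNP against control, with Benjamini-Hochberg adjustment over all genes and a threshold of 0.05. Each SE is the absolute log2 fold change over the root of F. Composition offsets are per-library lowess curves (span 0.5, 3 iterations). Alternatives included limma-voom (limma 3.58.1) and the DESeq2 1.42.0 Wald test. The scripts were tested on simulated data. Shares and ratios use TPM. Likeness uses log2 of CPM plus 0.5.

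The 9 genes, pathway lists, markers and tests were chosen with earlier results of these data known. All 9 genes are named; from each pathway list, up to 2 genes per direction with the largest changes among those past the threshold at a mean of at least 5 CPM; and the 3 genes nearest to APP and to BACE1. APH1B, BACE2, BACE1-AS, IDE, LRP1, SEZ6L, SEZ6L2, NCAM1, L1CAM, NOTCH2, DBH, HAND2, ELAVL4, TUBB3, COL3A1 and COL1A2 are named outside that rule, after their values were seen. Single values of some list genes are not reported here.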

Additional observations from a re-analysis of the deposited data

How the results depend on the processing

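The count of genes that differed, 3861, became 2415 by DESeq2 (Wald) and 2224 with a threshold of 0.01, and ranged from 2447 (without control b) to 4152 when 1 library was left out; leaving out control a gave 2482. For the 9 genes, 3 calls became 1 with the length, GC and guanine minus cytosine offsets, 1 (APP) at the 0.01 threshold, and 0 to 4 when 1 library was left out; the cause was not tested. Offsets on length and GC alone left 4 calls, where 28.9% of all genes tested passed. These were APP (0.45), APLP2 (0.37), APH1A (-0.32) and NCSTN (-0.33), so the loss appeared with guanine minus cytosine. Read totals implied by RPKM moved the share of higher calls among all genes from 51.9% to 63.1%; APH1A did not pass there, at -0.32. The composition offsets reversed APLP2 (-0.043), ADAM10 (-0.076) and PSENEN (0.20). When 1 library was left out, PSEN2 ranged from -0.068 to 0.31 and PSENEN from -0.70 to 0.38. A filter at a mean of 50 counts removed PSENEN. The pathway count of 23 ranged from 16 to 25 over the alternatives at the 0.05 threshold. A fit that leaves a group with 1 library assumes that it varies like the other group.

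The letters a and b are shared between groups, but the a-minus-b deviations correlated at only 0.047 across genes, so no pairing was taken from them. With the replicate block, 4487 genes differed and the same 3 of the 9 genes passed. The replicate block with the composition offsets gave 2769 genes, with APLP1 (0.33) and BACE1 (0.37) past the threshold; APLP2 (-0.042), ADAM10 (-0.076) and PSENEN (0.23) had the opposite sign there. Depth limits PSENEN most, with 19 to 35 counts per library.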

Other observations

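RefSeq (GRCh38.p14) gave 12 promoter windows, from 250 bases before to 50 after a start, for the 9 genes, with 2 windows for APP and 3 for BACE1. The GC box GGGCGG, searched on both strands, was present in 7 of the 12 windows and in 44.95% of all 35116 windows; APLP1 had 7 matches and APLP2 5. The letters TATAAA were found in 1 of the 12 windows, of APP, against 11.5% of all windows. The core of the antioxidant response element, TGACNNNGC, was found in 1 window of APP and 1 of BACE1, against 13.3% of all windows. The median GC content of the 12 windows was 63.5%, and 58.7% over all windows. A match describes the letters only.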
